A study of Saccharomyces cerevisiae with 4 samples.

Results

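The 10 genes described here encode the glycine cleavage complex and the enzymes that carry one-carbon units on folate in budding yeast (*Saccharomyces cerevisiae*). They were taken by name, through their open reading frames, from 6254 genes measured on Agilent yeast arrays, and each was represented by 1 probe with 2 or 3 spots. Total RNA of wild-type cells (Y52, of the W303-1A background) was compared with that of *esl1Δ esl2Δ* cells, in which *ESL1* was replaced by *KAN* and *ESL2* by *NAT*, in 3 biological replicates. Both strains were MATa and shared *RAD5*, the alleles *ade2-1* and *can1-100*, and the mutations *leu2-3, 122*, *trp1-1* and *ura3-1*, so that the wild-type also lacked a functional *ADE2*, a gene of purine synthesis, which itself uses folate-bound one-carbon units. Cultures were in log phase at 30° in YPD with 2% glucose. On each array the RNA of both strains was bound to the same spots in different dyes, with the mutant in Cy5 on 3 arrays and in Cy3 on a dye-swap array that repeated replicate 3. The labels do not say whether the replicates came from separate clones, and the p-values measure the spread between these samples. With 3 replicates, the precision of the means is limited.

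Tetrahydrofolate carries single carbons between amino acids, purines, thymidylate and methionine, and yeast runs this traffic in both mitochondria and cytosol. In mitochondria the glycine cleavage complex splits glycine into carbon dioxide, ammonia and a carbon held as methylene-tetrahydrofolate: *GCV2* encodes its P subunit, the glycine decarboxylase, *GCV1* its T subunit, the aminomethyltransferase, *GCV3* its H subunit, which carries the intermediate on lipoic acid, and *LPD1* its L subunit, the lipoamide dehydrogenase. The serine hydroxymethyltransferases interconvert serine and glycine, as Shm1 in mitochondria and Shm2 in the cytosol, and the trifunctional C1-tetrahydrofolate synthases Mis1 and Ade3 interconvert the oxidation states of the carbon in the same compartments. *MTD1* encodes a cytosolic NAD-dependent methylenetetrahydrofolate dehydrogenase and *MET13* a methylenetetrahydrofolate reductase, which commits the carbon to methionine. The glycine cleavage genes are known as part of a regulon that yeast raises when glycine is plentiful and lowers when it is withdrawn.

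Of the 10 genes, the study names *GCV1*, *GCV2*, *GCV3* and *SHM2* for their change on these same arrays, so that their values are not independent evidence of that change. The deleted genes were low on all 4 arrays, at log2 ratios between −4.77 and −4.23 for *ESL1* and between −3.99 and −3.62 for *ESL2*, as the labels of genotype and dye state. The median intensity over gene spots was between 1660 and 5186 in a channel, the share of gene spots well above background was 92.4% to 98.0%, and 0 were saturated. All 10 probes were well above background in both strains on all 4 arrays. The MATa markers *MFA1*, *MFA2*, *STE2* and *BAR1* were also so on all 4 arrays, and of the markers of the other mating type *STE3* was so on all 4, *MF(ALPHA)1* on 3 and *MF(ALPHA)2* on 2. Replicate 3 stood apart from the others: over all genes tested, none of which is an independent replicate, the log2 ratios correlated at 0.681 between replicates 1 and 2, but at 0.102 and 0.214 between replicate 3 and replicates 1 and 2. Both arrays of replicate 3 correlated at 0.844. The calls, the arms and the isozyme pairs are therefore also given without replicate 3.

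The 3 glycine cleavage genes *GCV1*, *GCV2* and *GCV3* were the lowest of the 10. *GCV1* (YDR019C) had normalized signals, in arbitrary units, of 11268 in replicate 1, 25849.6 in replicate 2, and 10383 and 11103 on both arrays of replicate 3 in wild-type cells. In *esl1Δ esl2Δ* cells its signals on the same arrays were 1983, 2329, 1529 and 1964. The mutant signal was below the wild-type signal on each of the 4 arrays, as it was for 13.8% of all genes tested. Signals were not scaled between arrays, so the strains are compared within an array only. The log2 ratio of *GCV1*, mutant over wild-type, was −2.51, −3.47 and −2.63 in replicates 1 to 3, with −2.76 and −2.50 on the arrays of replicate 3 before and after the dye swap. Its mean of −2.87 ± 0.53 (SD, n = 3), a 7.31-fold lower level, had a 95% interval of −3.40 to −2.34 and an adjusted p of 0.0404 (limma, Benjamini-Hochberg adjustment over 6254 genes).

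*GCV2* (YMR189W) followed *GCV1* closely. Its normalized signals in wild-type cells were 5974, 9462, 5739 and 5931 on the arrays of replicates 1, 2 and 3 and the dye swap. Those in the mutant were 1024, 931, 1102 and 1408, again lower on each array. The log2 ratios were −2.54, −3.35 and −2.23, a mean of −2.71 ± 0.58 (SD, n = 3) with a 95% interval of −3.28 to −2.13 and an adjusted p of 0.0455 from limma. *GCV2* and *GCV1* differed from each other by 0.16 ± 0.22 in log2 ratio (SD, n = 3), less than 1 SD. On the array of replicate 2, on which both were lowest, the 3 spots of *GCV2* gave −3.03, −3.55 and −3.46.

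*GCV3* (YAL044C) was lower by about a log2 unit less. Its wild-type signals were 23853, 62264, 42788 and 66003 on the same 4 arrays. Its mutant signals were 10607, 17405, 17383 and 18902, lower on each array. The log2 ratios were −1.17, −1.84 and −1.55 in replicates 1 to 3, averaging −1.52 ± 0.34 (SD, n = 3) or 2.87-fold lower, with a 95% interval of −1.91 to −1.13. This did not pass the test (limma adjusted p of 0.0936). The difference of *GCV3* from the mean of *GCV1* and *GCV2* was 1.36, 1.57 and 0.88 in replicates 1 to 3, more than its SD of 0.35. The dye swap moved *GCV3* from −1.30 to −1.80, the largest such move among the 10 genes and opposite in sign to those of *GCV1* and *GCV2*.

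**Figure D1:**
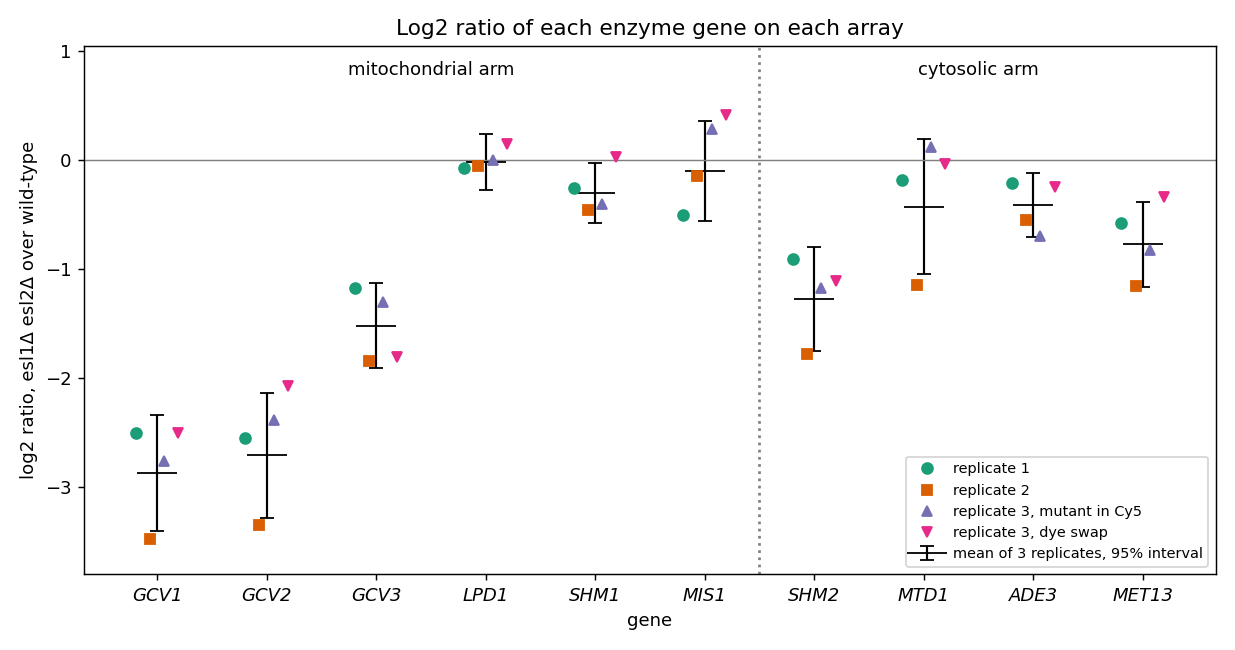
The vertical axis gives the log2 ratio of *esl1Δ esl2Δ* over wild-type cells and the horizontal axis the 10 genes, with 1 symbol per array and black bars for the mean of 3 replicates and its 95% interval from limma. *GCV1* and *GCV2* lay between −3.47 and −2.08 on all 4 arrays, whereas *LPD1* lay between −0.07 and 0.15.

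*LPD1* (YFL018C), the subunit that the glycine cleavage complex shares with the pyruvate and 2-oxoglutarate dehydrogenase complexes, had almost equal signals in both strains. These were 74981, 68336, 54192 and 58685 in wild-type cells and 71303, 66060.5, 54248 and 65262 in the mutant on the 4 arrays. The log2 ratios were −0.07, −0.05 and 0.08 in replicates 1 to 3, with a mean of −0.01 ± 0.08 (SD, n = 3; limma adjusted p of 0.962) and a 95% interval of −0.27 to 0.24. The interval holds changes of less than 1.5-fold only. On the array of replicate 3 with the mutant in Cy5, the 2 spots of *LPD1* differed in sign, at −0.24 and 0.24, and averaged 0.001. *LPD1* lay above the mean of *GCV1*, *GCV2* and *GCV3* by 2.00, 2.84 and 2.21 in the 3 replicates, 2.35 ± 0.43 (SD, n = 3). The 6 listed genes for other subunits of these 2 dehydrogenase complexes were *PDA1*, *PDB1*, *LAT1*, *PDX1*, *KGD1* and *KGD2*. Their mean log2 ratios were between −0.17 for *PDX1* and 0.34 for *KGD1*, with a median of −0.001. Of these, 0 passed the limma test and 1 had an unadjusted p below 0.05, where 0.112% and 13.3% of all genes did. *KGD1*, the E1 subunit of 2-oxoglutarate dehydrogenase, had 0.25, 0.34 and 0.43 in replicates 1 to 3. The genes that attach lipoic acid to Gcv3 and to the other complexes were measured too. *LIP2*, a lipoyl transferase, had a mean of 0.29 ± 0.15 (SD, n = 3), *AIM22*, also known as *LIP3*, one of 0.20 ± 0.24, and *LIP5*, the lipoate synthase, one of −0.10 ± 0.10. By limma, 0 of the 3 passed the test, with 1 at an unadjusted p below 0.05, beside the same 0.112% and 13.3% of all genes.

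The remaining mitochondrial genes had log2 ratios nearer to 0. *SHM1* (YBR263W) had −0.26, −0.46 and −0.19 in replicates 1 to 3, averaging −0.30 ± 0.14 (SD, n = 3; limma adjusted p of 0.346). It was negative in all 3 replicates, but on the dye-swap array it was 0.03 against −0.40 on the other array of replicate 3. *MIS1* (YBR084W) spread across 0, with −0.50, −0.15 and 0.35 in the 3 replicates. Its mean of −0.10 ± 0.43 (SD, n = 3; limma adjusted p of 0.841) had a 95% interval of −0.56 to 0.36. For *MIS1* the signal of wild-type cells was above that of the mutant in replicates 1 and 2, at 15360 against 10865 and 25801.5 against 23307, and below it on both arrays of replicate 3, at 10634 against 12946 and 12213 against 16343.

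In the cytosol the lowest gene was *SHM2*. *SHM2* (YLR058C) had wild-type signals of 42491, 54750.1, 58508 and 62994 on the arrays of replicates 1, 2 and 3 and the dye swap. Its mutant signals were 22718, 15926, 26024 and 29210.0, lower on each array. Its log2 ratios were −0.90, −1.78 and −1.14 in the 3 replicates, and both arrays of replicate 3 gave −1.17 and −1.11. The mean of −1.27 ± 0.45 (SD, n = 3), 2.42-fold lower, had a 95% interval of −1.75 to −0.80 and did not pass the test (limma adjusted p of 0.137).

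*MET13* (YGL125W) came next, with log2 ratios of −0.57, −1.16 and −0.58. Its mean was −0.77 ± 0.34 (SD, n = 3; limma adjusted p of 0.191), or 1.70-fold lower. Its wild-type signals were 1317, 2689, 1204 and 1145 on the 4 arrays and its mutant signals 884, 1206, 682 and 909, so that the mutant was lower on each array. *ADE3* (YGR204W) had −0.21, −0.55 and −0.47, averaging −0.41 ± 0.18 (SD, n = 3; limma adjusted p of 0.273). Its 2 spots on the array of replicate 2 were far apart, at −0.27 and −0.82. *MTD1* (YKR080W) was carried by 1 replicate: its log2 ratio was −1.14 in replicate 2 but −0.18 in replicate 1 and 0.04 in replicate 3, and the mean, −0.43 ± 0.63 (SD, n = 3; limma adjusted p of 0.514), did not exceed the SD. The wild-type signal of *MTD1* itself ranged from 2322 on the array of replicate 3 to 10444 on that of replicate 2. Since signals were not scaled between arrays, this range also holds differences in brightness between arrays.

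**Figure D2:**
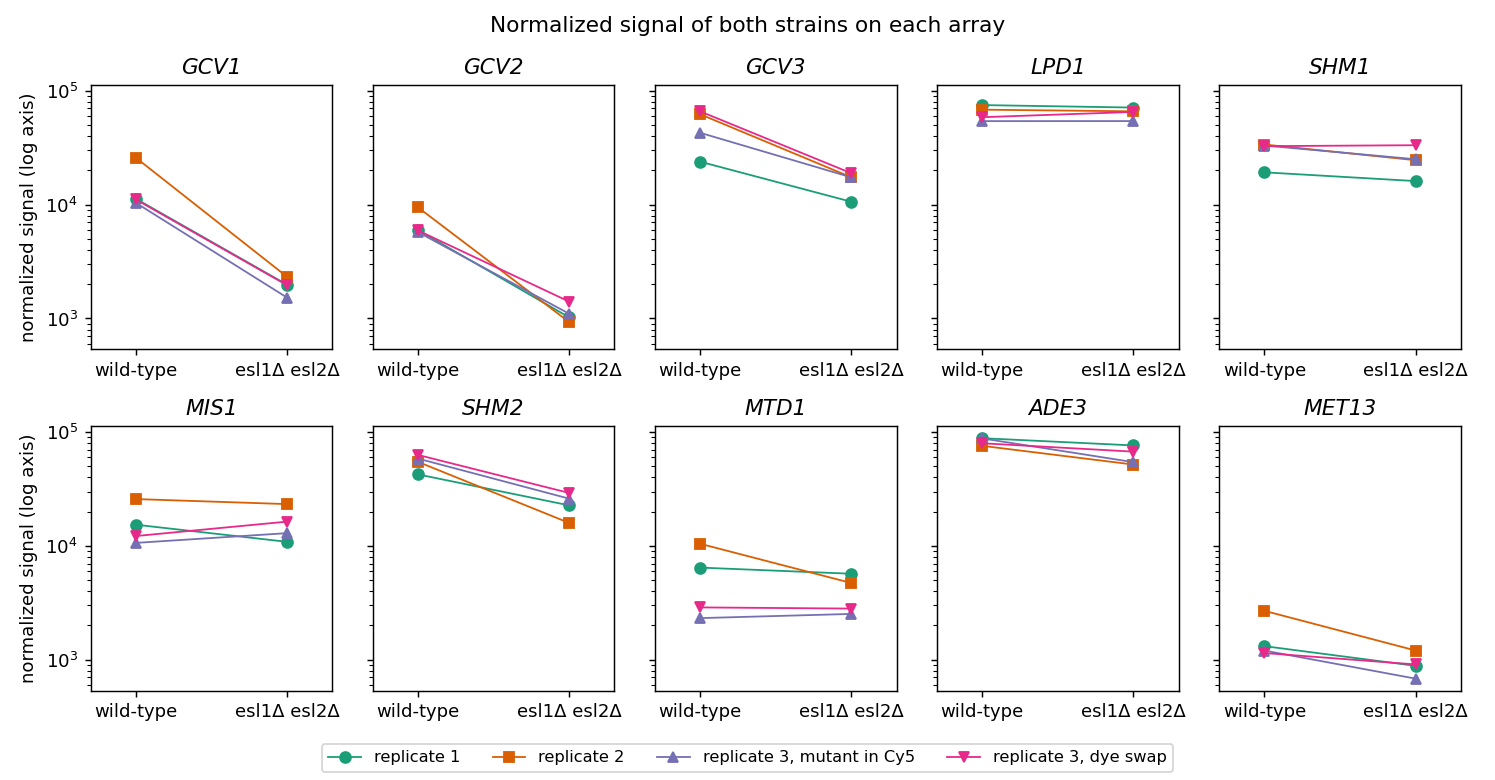
Each panel gives, for 1 gene, the normalized signal in arbitrary units on a log axis in wild-type and *esl1Δ esl2Δ* cells, with 1 line per array. The lines of *GCV1*, *GCV2*, *GCV3*, *SHM2*, *ADE3* and *MET13* go down on all 4 arrays, as 13.8% of all genes tested did. Those of *MIS1* go down in replicates 1 and 2 and up in replicate 3. Signals were not scaled between arrays.

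Counted together, 2 of the 10 genes passed the limma test downward, *GCV1* and *GCV2*, against 0.0799% of all genes tested, and 0 passed it upward, against 0.032%. At an unadjusted p below 0.05, which 13.3% of all genes reached in either direction, 7 of the 10 were lower. A mean at least 2-fold lower was found for 4 of the 10 (*GCV1*, *GCV2*, *GCV3* and *SHM2*) and for 0.4% of all genes, and a mean at least 2-fold higher for 0 of the 10 and likewise for 0.4% of all genes. By sign, 7 of the 10 were lower in all 3 replicates, against 18.5% of all genes, and 0 were higher in all 3, against 18.7%. In replicates 1 and 2 alone all 10 were lower, as were 37.4% of all genes, and the 3 that were not lower throughout (*LPD1*, *MIS1* and *MTD1*) were above 0 in replicate 3. The median of the 10 means was −0.60, beside −0.005 over all genes. Without the 4 genes that the study names, the other 6 had a median of −0.35, and 0 of these 6 passed the limma test, with 3 at an unadjusted p below 0.05.

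In the order of all 6254 mean log2 ratios from the lowest, in which *ESL1* and *ESL2* were 1 and 2, *GCV1* was at place 4, *GCV2* at 5, *GCV3* at 10 and *SHM2* at 13. *MET13* followed at place 43, *MTD1* at 199, *ADE3* at 230, *SHM1* at 495, *MIS1* at 1948 and *LPD1* at 3006, close to the middle. *GCV1* was at place 8, 4 and 3 in replicates 1 to 3 taken singly, and *GCV2* at 7, 5 and 6, so that both held their place in replicate 3, which shared little with the others across genes. *MIS1*, in contrast, went from place 335 in replicate 1 to 5322 in replicate 3. Along the order of the 10 genes, the step from *GCV2* to *GCV3* (1.19 ± 0.45, SD over 3 replicates) and that from *SHM2* to *MET13* (0.51 ± 0.16) were the widest and were both more than 2 times their SD. The steps from *GCV1* to *GCV2*, and between *MTD1*, *ADE3*, *SHM1*, *MIS1* and *LPD1*, were smaller than their SD. Those from *GCV3* to *SHM2* (0.25 ± 0.18) and from *MET13* to *MTD1* (0.34 ± 0.31) were a little larger than it.

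**Figure D3:**
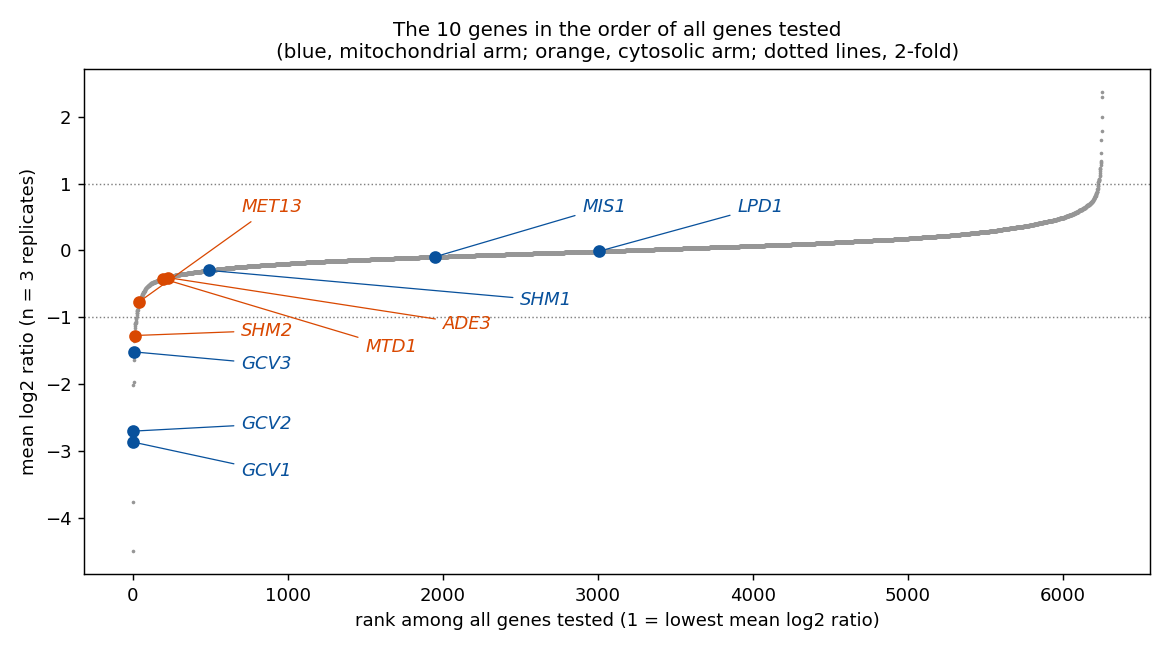
The mean log2 ratio of 3 replicates (vertical axis) is plotted against its rank among 6254 genes (horizontal axis), with the 10 genes marked in blue for the mitochondrial and in orange for the cytosolic arm and dotted lines at 2-fold. *GCV1*, *GCV2*, *GCV3* and *SHM2* lie below the lower line at ranks 4, 5, 10 and 13, and *LPD1* lies near the middle at rank 3006.

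The arrays also differed in how low these genes were. Replicate 2 gave the lowest of the 3 values for 8 of the 10 genes, the exceptions being *LPD1* and *MIS1*, whereas it did so for 32.3% of all genes. Across the genes of each array the log2 ratio had an SD of 0.338 in replicate 1, 0.410 in replicate 2, and 0.408 and 0.390 on the arrays of replicate 3. The dye swap moved the 10 genes by a median of 0.29 in size, beside 0.15 over all genes, and on the array with the mutant in Cy5 8 of the 10 were lower than on the dye swap, against 48.1% of all genes. A part of the dye in these differences was not tested, since only replicate 3 was swapped. With all 4 arrays as separate values, 6 of the 10 genes were below 0 throughout, as were 13.8% of all genes, the 6 being the 7 above without *SHM1*.

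The mitochondrial arm (*GCV1*, *GCV2*, *GCV3*, *LPD1*, *SHM1* and *MIS1*) and the cytosolic arm (*SHM2*, *MTD1*, *ADE3* and *MET13*) were then compared within each replicate. *MET13* was placed in the cytosolic arm from general knowledge, and its compartment was not measured here. The mean log2 ratio over the mitochondrial genes was −1.17, −1.55 and −1.03 in replicates 1 to 3, and that over the cytosolic genes was −0.47, −1.16 and −0.53. The cytosolic arm was thus above the mitochondrial arm by 0.71, 0.39 and 0.49, a mean of 0.53 ± 0.16 (SD, n = 3). This order rested on the glycine cleavage genes. *GCV1*, *GCV2* and *GCV3* together had means of −2.07, −2.89 and −2.14 in the 3 replicates, whereas *LPD1*, *SHM1* and *MIS1* had −0.28, −0.22 and 0.08. When the cytosolic arm was set against these last 3 genes, it was below them in every replicate, by −0.19, −0.94 and −0.62, a mean of −0.58 ± 0.38 (SD, n = 3). Without *SHM2* as well, the 3 other cytosolic genes were below them by −0.05, −0.73 and −0.41. Without replicate 3 the cytosolic arm was above the mitochondrial arm by 0.55 and below *LPD1*, *SHM1* and *MIS1*, whose mean was then −0.25 rather than −0.14, by −0.57. No p is given for these scores, since their genes were chosen.

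Both compartments have an enzyme for the same step in 2 cases, which gave 2 pairs of isozymes. *SHM2*, one of the genes the study names, was below *SHM1* in every replicate, with differences in log2 ratio of −0.65, −1.32 and −0.95 and a mean of −0.97 ± 0.34 (SD, n = 3). An exact sign-flip permutation test over 3 replicates, two-sided, gave a p of 0.25 for this pair, the smallest that 3 replicates allow. For *ADE3* minus *MIS1* the differences were 0.29, −0.40 and −0.82, with a mean of −0.31 ± 0.56 (SD, n = 3; exact p = 0.5), so that this pair had no common direction. Without replicate 3 the mean difference was −0.055 for *ADE3* minus *MIS1* and −0.99 for *SHM2* minus *SHM1*. Adjustment over the 2 pairs leaves both p at 0.5. Whether the probe of one isozyme also binds the transcript of the other was not tested, as the files hold no probe sequences.

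**Figure D4:**
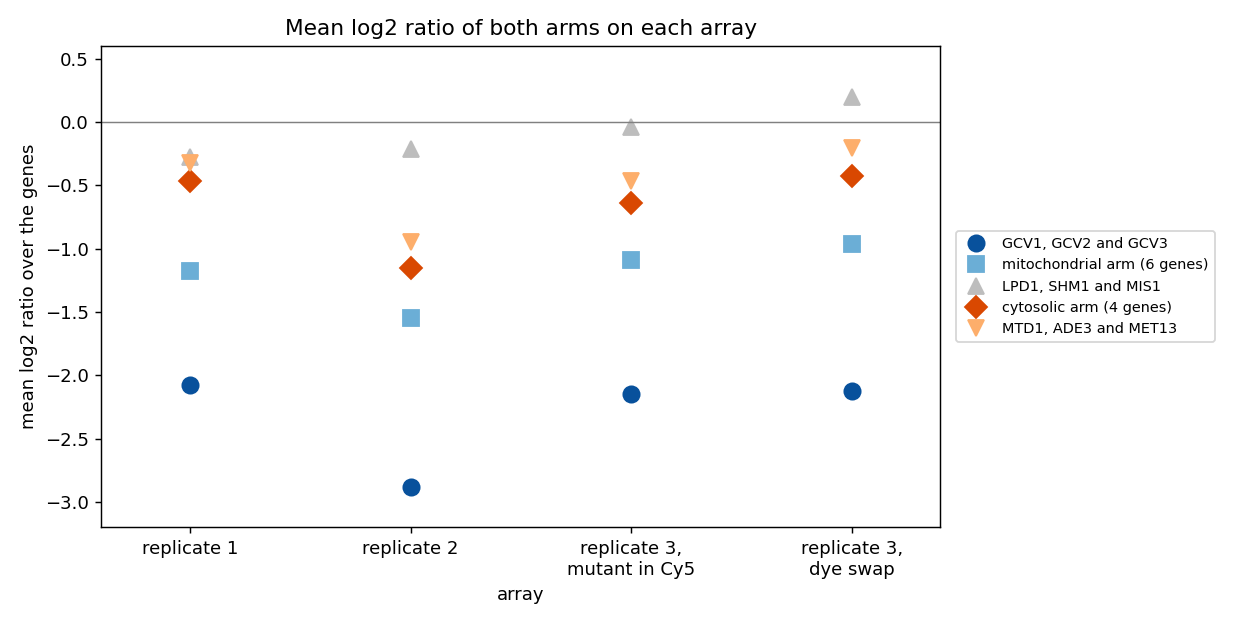
The vertical axis gives the mean log2 ratio over the genes of each group on each of the 4 arrays along the horizontal axis. The glycine cleavage genes lie between −2.89 and −2.07, the cytosolic arm lies above the whole mitochondrial arm on each array, and it lies below *LPD1*, *SHM1* and *MIS1* on each array.

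Likeness to the 4 lowest genes was measured as the Euclidean distance between the 3 replicate log2 ratios, over 6037 other genes well above background in a strain on at least 3 arrays. The nearest gene to *GCV1* was *GCV2*, at a distance of 0.42, followed by the hexose transporter gene *HXT3* at 0.99 and the deleted *ESL2* at 1.61, and *GCV3* was also among the 5 nearest, at 2.37. For *GCV2* the 5 nearest included *GCV1*, *HXT3* (0.92), *ESL2* (1.91) and *MIG3* (2.09). The nearest to *GCV3* were *SHM2* (0.49), *ADE17* (0.60), *SHC1* (0.62), *ARG7* (0.92) and *ARI1* (0.92), and those to *SHM2* were *ADE17* (0.38), *GCV3* (0.49), *CTS1* (0.54), *LEU1* (0.58) and *ARG7* (0.60). With 3 points a gene, this distance mostly reflects how low a gene was.

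Among 16 other genes of folate synthesis and use, low values were few. The lowest was *ADE17*, one of the isozymes that add the formyl group in the last steps of purine synthesis and a gene that the study names on these arrays. Its log2 ratio was −0.68 in replicate 1, −2.05 in replicate 2 and −1.29 in replicate 3, averaging −1.34 ± 0.69 (SD, n = 3; limma adjusted p of 0.189), and it was the 1 gene of the 16 past 2-fold. Its paralog *ADE16* had 0.02, −0.09 and −0.14. *ADE8*, the other formyl transferase of purine synthesis, had −0.37, −0.70 and −0.24, and the dihydrofolate reductase gene *DFR1* had −0.54, −0.42 and −0.04. *MET12*, the second methylenetetrahydrofolate reductase, had a mean of −0.18 ± 0.23 (SD, n = 3) beside −0.77 for *MET13*, and *MET6*, the methionine synthase that takes up the methyl group, had −0.15 ± 0.34. At the other end *FAU1*, which returns formyl-folate to the pool, had 0.23 ± 0.25. The median of the 16 means was −0.08, 3 of them (*ADE17*, *ADE8* and *DFR1*) were lower in all 3 replicates, and 0 passed the limma test, with 2 at an unadjusted p below 0.05. Both counts, 3 and 2 of 16, are close to the shares over all genes, 18.5% and 13.3%.

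The 8 genes that make or break down serine and glycine varied in both directions. *SER1*, the transaminase of serine synthesis, had −0.61, −0.42 and −0.43 in replicates 1 to 3 (mean −0.48 ± 0.11, SD, n = 3; limma adjusted p of 0.199), and it was the 1 gene of the 8 that was lower in all replicates. *CHA1*, the serine and threonine deaminase, had 0.25, −1.44 and −1.27. *AGX1*, which makes glycine from glyoxylate, had −0.06, 0.51 and 1.09, the highest mean of the 8 at 0.51 ± 0.58, whereas *GLY1*, the threonine aldolase, had −0.44, −0.66 and 0.57. *HEM25*, a mitochondrial glycine carrier, had −0.14 ± 0.47. The median of the 8 was −0.10, and 0 passed the limma test, with 1 at an unadjusted p below 0.05. Over all genes, 18.5% were lower in all 3 replicates, 0.112% passed the test and 13.3% had an unadjusted p below 0.05.

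**Figure D5:**
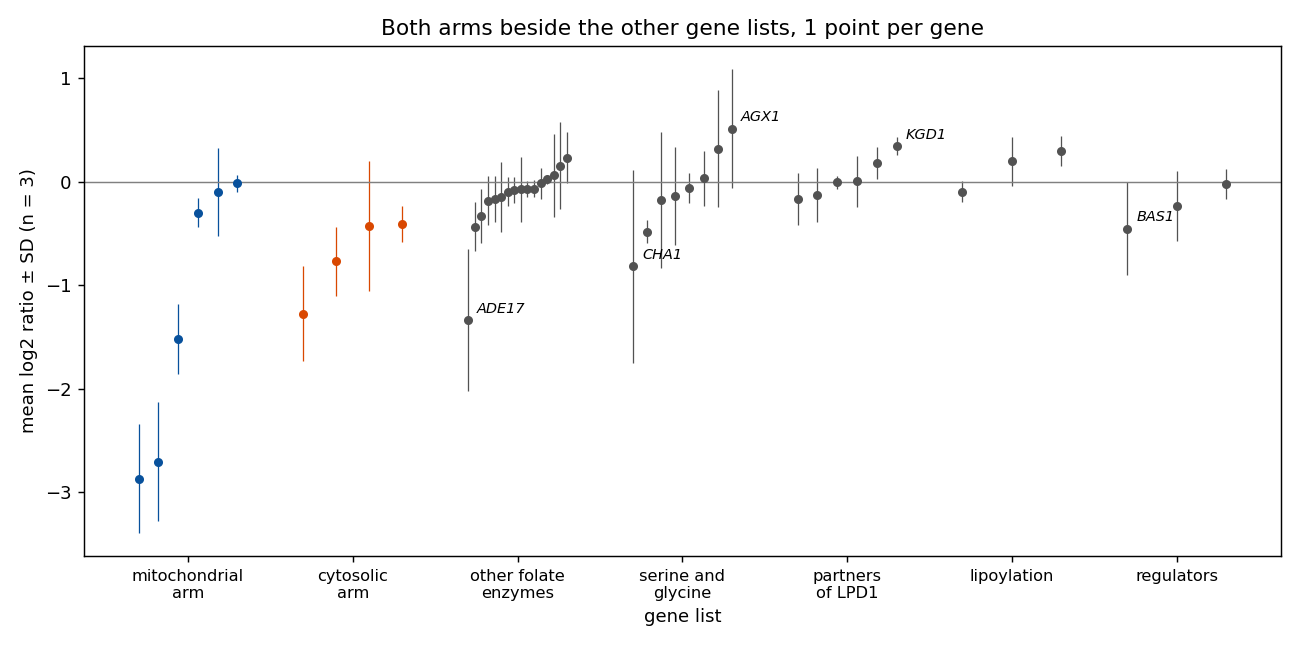
Each point gives the mean log2 ratio of 1 gene with its SD over 3 replicates (vertical axis), for both arms and 5 other gene lists (horizontal axis). Apart from *ADE17* at −1.34, all genes of the other lists had means between −0.82 and 0.51.

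The transcription factors known to act on this regulon were themselves on the array. *BAS1* was at −0.67, −0.75 and 0.07 in the 3 replicates (mean −0.45 ± 0.45, SD, n = 3; limma adjusted p of 0.398), and *GCN4* had −0.51, −0.33 and 0.14. *PHO2*, the partner of Bas1, had 0.11, 0.004 and −0.18. Of the 3, 0 passed the limma test or had an unadjusted p below 0.05, where 0.112% and 13.3% of all genes did. *BAS1* is the 3rd protein-coding gene after the deleted *ESL2* in the gene order of assembly R64, past *PCK1* (−1.12, 0.63 and 0.76) and *UBP11* (−0.08, −0.01 and −0.27). A part of the deletion in the values of these genes was not tested.

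The genes next to the 10 on the chromosome had log2 ratios smaller in size than those of *GCV1*, *GCV2*, *GCV3* and *SHM2*. In the gene order of R64 there were 20 neighboring protein-coding genes, 19 of them with a probe, and their mean log2 ratios were between −0.40 for *RPF2*, next to *MTD1*, and 0.56 for *MRPS17*, next to *GCV2*. Of the 19, 0 were past 2-fold, beside 0.799% of all genes. *GCV1* lies between *MLG1* (0.44 ± 0.19, SD, n = 3) and *DAS2* (−0.12 ± 0.29), *GCV3* between *BOL1* (−0.08 ± 0.20) and *PTA1* (−0.21 ± 0.17), and *SHM2* between *MNL2* (−0.29 ± 0.23) and *REX2* (0.08 ± 0.13). These neighbors were looked up after the values of the 10 genes were known. By limma, 0 of the 19 had an adjusted p below 0.05, where 0.112% of all genes did.

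The calls of *GCV1* and *GCV2* depended on which replicate was left out. Without replicate 1 their adjusted p from limma was 0.0906 and 0.158, and without replicate 2 that of *GCV2* was 0.0732, while *GCV1* passed at 0.0474. The means stayed between −3.05 and −2.39. Without replicate 3, 5 of the 10 genes passed the test, where 9.63% of all genes did: *GCV1* (adjusted p 0.00774), *GCV2* (0.00558), *GCV3* (0.018), *SHM2* (0.0263) and *MET13* (0.0334). Their means without replicate 3 were −1.50 for *GCV3*, −1.34 for *SHM2* and −0.87 for *MET13*.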

How the data were processed

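Total RNA of 3 biological replicates per strain was labelled with Cy3 or Cy5 and hybridised in pairs to 4 arrays on 1 slide, with replicate 3 repeated in swapped dyes. The authors scanned the arrays and deposited Agilent Feature Extraction (10.1.1.1) output with median signal and background intensity per spot and channel. They also deposited log10 ratios of red over green, in the scanner output and in a table of the series that holds the same log10 ratios without turning the swap. The columns of the authors' p-values and errors of the log ratio were not used.

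From the intensities, the background was corrected with normexp (offset 50) and each array was normalized by loess (limma 3.58.1, R 4.3.3, version 1.17.8 of data.table), with 536 control spots given no weight. Control and outlier spots (2.29% of 15208 gene spots) were left out and the spots of a probe averaged. Signals include the offset and were normalized within each array only, without scaling between arrays. The sign of the swap was turned so that every ratio was mutant over wild-type, both arrays of replicate 3 were averaged, and the mean of 3 replicates was tested against 0 with lmFit and eBayes, adjusted by Benjamini-Hochberg over 6254 genes (threshold 0.05; 5.278 degrees of freedom in all, with a prior of 3.278). Symbols came from RefSeq locus tags of assembly R64 (5756 of 6256 probes matched). The script was tested on simulated data in which no replicate stood apart, unlike replicate 3 here.

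The rule for named genes took the 10 genes, *ESL1* and *ESL2*, from each list those past 2-fold or the test and the highest and lowest, and the 5 genes nearest to *GCV1*, *GCV2*, *GCV3* and *SHM2*, of which 1 is not reported here. Other list genes are named for their role, and were picked after their values were seen. The members and lists were chosen with earlier results of these data known. Chromosomal neighbors were added after the data were seen. The alternatives were other background corrections, normalizations and spot summaries, the deposited log10 ratios, separate channels, a dye term, the arrays of replicate 3 singly, another fold threshold and leaving out each replicate. No sequences are printed, because none for these genes were among the sources used here.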

Additional observations from a re-analysis of the deposited data

How the results depend on the processing

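The 2-fold count of 4 lower genes was the same under every alternative except the 1.5-fold threshold, which gave 5 of the 10 where 1.31% of all genes passed it. The count of genes with an adjusted p below 0.05 (limma) was 2 in the report, where 0.112% of all genes passed. It was 0 with the deposited log ratios in the scanner output or the series table, where 0.016% of all genes passed. It was 1 with the median of spots (0.0799% of all genes), the dye swap alone for replicate 3 (0.064%), or 4 arrays with a dye term (0.096%). The fit with the dye term treated both arrays of replicate 3 as independent samples, though they hold the same RNA, and its dye estimate rests on 1 swapped array. Leaving out a replicate gave counts from 0 (without replicate 1, where 0.032% of all genes passed) to 5 (without replicate 3, where 9.63% did). With the deposited log ratios, 21 genes were listed at exactly 0 in all 3 replicates. Leaving these out of the fit, an alternative chosen after seeing the data, gave 2, *GCV1* and *GCV2*, at adjusted p of 0.0285 and 0.0382. Of all genes, 0.144% then passed. Over all alternatives the adjusted p of *GCV1* ranged from 0.00594 to 0.0984 and that of *GCV2* from 0.00558 to 0.158, and *GCV3* passed the test with median centring as well (0.0353). For *GCV3* the adjusted p rose to 0.525 without replicate 2 and to 0.999 with separate channels. That of *SHM2* ranged from 0.0263 to 0.879. The count of genes lower in every replicate used was 7 in the report (18.5% of all genes) and 10 without replicate 3 (37.4%). With median centring this count was 6, and the share of all genes was not counted. *ADE3* was −0.19 with median centring, beside −0.41 in the report. Among single genes, signs turned for *LPD1* and *MIS1*. *LPD1* was 0.20 with median centring, 0.011 with the dye swap alone and 0.057 with the dye term, and with a replicate left out it ranged from −0.061 (without replicate 3) to 0.014 (without replicate 1; 0.0024 without replicate 2). *MIS1* was 0.15 with the dye term and ranged from −0.32 (without replicate 3) to 0.10 (without replicate 1). The causes were not tested. The cytosolic minus mitochondrial difference stayed between 0.44 and 0.60, and the *SHM2* minus *SHM1* difference between −1.14 and −0.80. *ADE3* minus *MIS1* ran from −0.61 (without replicate 1) to −0.055 (without replicate 3). The mean of *LPD1*, *SHM1* and *MIS1* ran from −0.25 (without replicate 3) to 0.011 (with the dye term, which turned its sign), and the cytosolic arm minus these genes from −0.78 (without replicate 1) to −0.40 (without replicate 2). The ratios pair both strains on each array, and separate channels without that pairing also gave 2 genes past the test, where 0.0799% of all genes passed.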
